A study of Mus musculus with 20 samples.

Results

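Genes that drive or mark cell division, 40 in all, were followed in mouse liver after more than a year of continuous gamma irradiation at 3 dose-rates. They were chosen by name, with earlier results of these data known, and fall into 9 groups by role. Of the 40 genes, 39 had at least 1 probe set that carried their symbol alone, among 18193 genes with such a probe set, and Ccnb1 had none. The probe set with the highest mean signal over all arrays stood for each gene. A gene was tested where that mean reached the median of all probe set means, 84.9, which kept 21 of the 39 genes and 11206 genes in all. The pair of genes just inside this limit were Top2a and Ccna2, both with a mean signal of 87.2, and those just outside were Ccne1 at 81.0 and Ccne2 at 76.4.

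Livers came from male C57BL/6J mice that were 8 weeks old when irradiation with 137Cs gamma rays began, and were taken as soon as it ended. In experiment 1, which lasted 485 days, the low, medium and high groups received 0.042, 0.858 and 16.6 mGy per day, to cumulative doses of 20.6, 416 and 8030 mGy. In experiment 2, which lasted 401 days, they received 0.05, 1.00 and 20.0 mGy per day, to cumulative doses of 20, 401 and 8015 mGy. Each irradiated group had 3 arrays of 1 mouse each, 18 arrays in all. Each experiment had 1 array of pooled RNA from unirradiated mice, 3 mice in experiment 1 and 6 in experiment 2. A pool averages its mice and has no spread of its own, so every difference from control rests on 2 arrays. P-values reflect how much these particular samples vary, and the number of arrays limits their precision. All arrays share 1 estimate of the spread, which comes mostly from single irradiated mice. A p-value against control thus does not measure the spread among unirradiated mice.

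Cells enter division when cyclin D with CDK4 and cyclin E with CDK2 release the E2F transcription factors, which switch on the genes of DNA replication. The MCM proteins then form the helicase that opens the DNA, and thymidine kinase, thymidylate synthase and ribonucleotide reductase supply deoxynucleotides. Cyclins A and B with CDK1, together with Aurora and Polo kinases, drive mitosis, and the anaphase promoting complex ends it. In the adult liver most hepatocytes are quiescent and return to the cycle after injury or resection, so transcripts of mitosis are scarce in the resting organ. E2F8 and E2F7 are atypical E2F factors that repress E2F target genes and are known for their part in hepatocyte polyploidy.

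Promoters of such genes often hold 3 sequence elements. The E2F element binds E2F factors, the CHR element (cell cycle genes homology region) is bound by the DREAM and MuvB complexes, and the CCAAT box is bound by NF-Y. The windows searched ran from 250 bases before to 50 bases after the start of each gene, 300 bases in all, in the RefSeq annotation of mouse build GRCm38.p6, where 32 of the 40 genes matched an entry. The letters searched, on both strands, were TTTGAA for CHR, CCAAT for the CCAAT box, and TTTGGCGC, TTTCCCGC, TTTCGCGC or TTTGCCGC for E2F. CHR letters were in 14 of 32 windows (43.8%), against 20.2% of 27025 windows of all genes. E2F letters were in 8 of 32 (25%), against 2.6% of all genes, and CCAAT was in 26 of 32 (81.2%), against 41.1%. A match describes the letters in the window and shows no binding.

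The matches are given by role as a description, with 2 to 5 windows a role and no test. E2F letters stood in 4 of 5 MCM windows (Mcm3, Mcm5, Mcm6 and Mcm7) and CHR letters in 1 of 5, Mcm2. Among the mitotic kinases and spindle checkpoint genes, CHR letters stood in 3 of 5 windows (Aurka, Bub1b and Plk1) and E2F letters in 0 of 5. Both windows of anaphase promoting complex genes, Cdc20 and Ube2c, held CHR letters. The 4 windows of deoxynucleotide supply (Rrm1, Rrm2, Tyms and Tk1) held neither E2F nor CHR letters. E2F letters also stood in Cdk1, Cdk2, E2f7 and Uhrf1. Cdk1 was the only 1 of the 32 genes with CHR and E2F letters, and Birc5, Ccne1, Cdk4, E2f1, Tk1 and Tyms held none of the 3 elements.

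The 250 bases before the start are printed for 4 genes: E2f8, Cdk2 and Cdk1, whose signals in all 6 mice of the medium group lay under the control pool of their experiment, and Mcm6, whose signal differed between the experiments. They lie on the minus strand of GRCm38.p6, at chr7:48881597-48881846 for E2f8, chr10:128705052-128705301 for Cdk2, chr10:69352913-69353162 for Cdk1 and chr1:128359706-128359955 for Mcm6. Each reads 5′ to 3′ in the direction of its gene, up to the base before the start, with CHR, E2F and CCAAT letters in capitals, including those read on the opposite strand.
E2f8: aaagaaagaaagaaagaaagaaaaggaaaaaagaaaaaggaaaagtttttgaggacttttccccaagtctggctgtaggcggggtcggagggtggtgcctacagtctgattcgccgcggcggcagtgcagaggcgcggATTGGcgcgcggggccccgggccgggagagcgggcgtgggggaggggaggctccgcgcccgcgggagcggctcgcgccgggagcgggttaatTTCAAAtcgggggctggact
Cdk2: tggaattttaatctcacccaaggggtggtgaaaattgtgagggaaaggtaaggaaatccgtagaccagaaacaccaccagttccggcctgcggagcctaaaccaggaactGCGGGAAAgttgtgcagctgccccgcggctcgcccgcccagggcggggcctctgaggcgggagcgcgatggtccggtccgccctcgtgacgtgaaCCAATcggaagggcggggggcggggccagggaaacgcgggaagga
Cdk1: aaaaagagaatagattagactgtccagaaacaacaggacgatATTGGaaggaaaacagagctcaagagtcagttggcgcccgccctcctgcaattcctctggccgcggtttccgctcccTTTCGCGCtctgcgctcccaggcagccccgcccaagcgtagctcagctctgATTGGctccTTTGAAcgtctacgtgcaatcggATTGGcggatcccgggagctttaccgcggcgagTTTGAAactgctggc
Mcm6: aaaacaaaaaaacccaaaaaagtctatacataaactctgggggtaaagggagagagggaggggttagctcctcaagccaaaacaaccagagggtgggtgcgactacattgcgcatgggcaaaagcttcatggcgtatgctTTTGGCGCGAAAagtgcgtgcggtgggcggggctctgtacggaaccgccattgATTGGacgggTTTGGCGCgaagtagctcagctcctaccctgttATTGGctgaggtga
E2f8 held CHR letters 20 bases before its start and a CCAAT box 112 before it, both on the opposite strand. Cdk2 had E2F letters 140 bases before the start, on the opposite strand, and a CCAAT box at 45. In Cdk1 the E2F letters were at 131, CHR letters at 71 and 15, and CCAAT boxes on the opposite strand at 208, 80 and 48. In Mcm6 there were E2F letters at 110 and 47, an overlapping E2F match on the opposite strand at 106, and CCAAT boxes on the opposite strand at 57 and 14.

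Values are MAS5 signal intensities on a linear scale, which Affymetrix software computes per probe set. The array medians ran from 81.3 to 104.8, and the mean after trimming 2% at each end was 500.0 on each array. No detection calls were used, so a signal is set against its array's median, which is not a limit of detection. Of the 21 genes tested, 11 lay above the median on all 20 arrays and 19 on at least 10. Of the 18 genes under the limit, 0 lay above the median on 10 arrays or more, and Bub1, Aurkb, Cenpe and Ect2 lay above it on none.

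**Figure D1:**
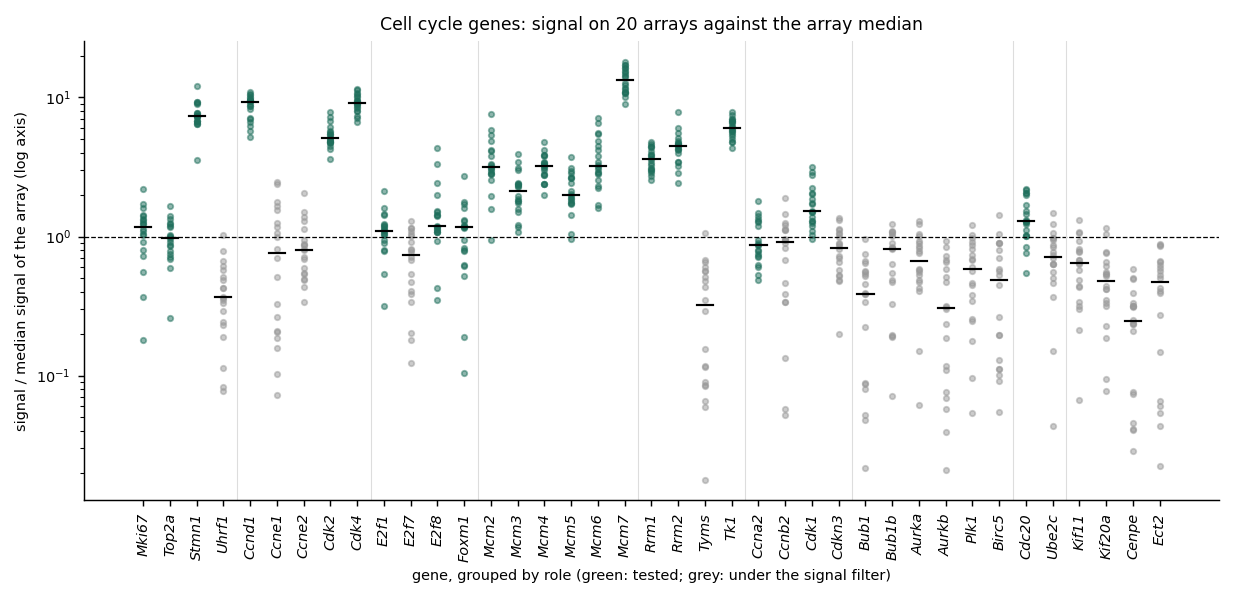
Signal divided by the array median, on a log axis, for 39 cell cycle genes grouped by role, with 1 point for each of 20 arrays (green where tested, grey under the limit) and a bar at the median. Cdk4, Ccnd1, Tk1, Stmn1 and Mcm7 lie above the dashed line of 1 on all arrays, whereas most points of the mitotic kinases and motors lie below it.

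The genes that passed the limit, as 11206 of 18193 genes did, are given by role; signals of different probe sets are not compared with each other. All 6 MCM genes and 3 of the 4 genes of deoxynucleotide supply (Rrm1, Rrm2 and Tk1, not Tyms) passed the limit. So did Cdk2, Cdk4 and Ccnd1 of the G1 genes, E2f1, E2f8 and Foxm1 of the transcription factors, and Mki67, Top2a and Stmn1 of the proliferation markers. Cdk1, Ccna2 and Cdc20 passed too. None of the 6 mitotic kinases and spindle checkpoint genes (Bub1, Bub1b, Aurka, Aurkb, Plk1 and Birc5) and none of the 4 motor and cytokinesis genes (Kif11, Kif20a, Cenpe and Ect2) did. Uhrf1, Ccne1, Ccne2, E2f7, Ccnb2, Cdkn3 and Ube2c were the others under it.

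The first comparison set each dose level against the unirradiated pools. None of the 21 genes tested passed at an adjusted p of 0.05 at any level (limma, all 20 arrays, dose level and experiment as terms, Benjamini-Hochberg over 11206 genes). Over all genes, 9 (0.0803%) passed at the high level, 4 (0.0357%) at the medium level and 1 (0.00892%) at the low level. Without the pool of experiment 1 these counts were 0, 0 and 0, and without that of experiment 2 they were 22, 20 and 13. At an unadjusted p under 0.05 there were 2 cell cycle genes at the high level, where 7.24% of all genes had such a p. There were 3 at the medium level, against 6.05%, and 0 at the low level, against 3.87%. All of these differences were below 0, as were those of 3.14% of all genes at the high level and 2.44% at the medium level. In whole liver, fewer cells of a type and less RNA per cell cannot be told apart.

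More of the 21 genes had a fitted difference from control below 0 than above it. The count below 0 was 15 at the high level, 14 at the medium level and 19 at the low level, where 48.6%, 47.9% and 49.9% of all genes tested were below 0. The median difference of the 21 genes was -0.16 on the log2 scale at the high level, -0.12 at the medium and -0.22 at the low, and the medians of all genes were 0.01, 0.01 and 0.00. The 3 comparisons use the same 2 pools, so these counts share their controls. Within experiment 2 the medium level went the other way, with 12 of 21 genes above 0 and a median of 0.05. Without the pool of experiment 1 the median was -0.06 at the high level, -0.13 at the medium and -0.09 at the low. Without the pool of experiment 2 it was -0.20, -0.16 and -0.24 in the same order. With probe sets ending in _at alone taken first (17 of the genes tested), it was -0.05, -0.01 and -0.05 at the high, medium and low level. In experiment 1 the pool was above the mean of the 10 arrays for 16 of the 21 genes, and in experiment 2 for 12 of 21.

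**Figure D2:**
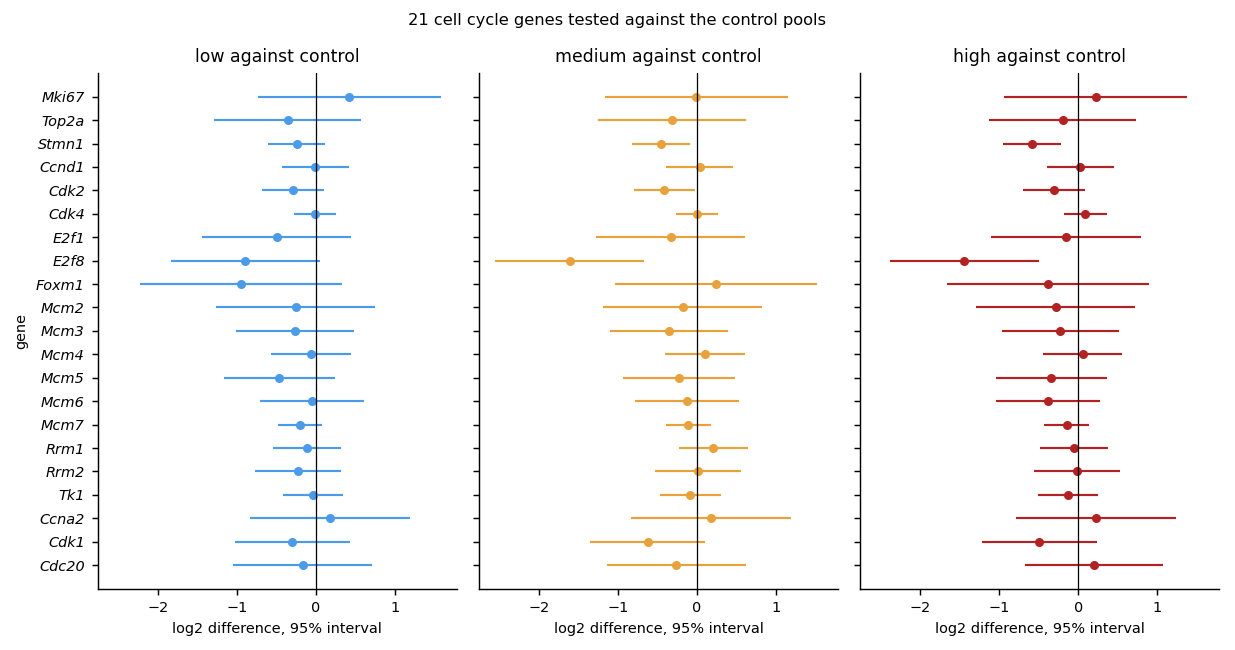
Fitted log2 difference from control for each of the 21 genes tested, at the low, medium and high level, with 95% intervals from limma. E2f8 lies farthest below 0 at the medium and high levels, at -1.61 and -1.44, and the 21 genes have no adjusted p under 0.05.

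E2f8 had the largest difference from control among the 21 genes at the high and medium levels. In experiment 1 its signal was 208 in the pool, 135, 113 and 92.8 at the low level, 113, 107 and 94.0 at the medium level, and 109, 122 and 134 at the high level. In experiment 2 the pool was at 357, the low mice at 172, 270.1 and 132, the medium mice at 95.8, 36.7 and 87.9, and the high mice at 35.1, 115 and 102. All 18 irradiated mice lay under the pool of their own experiment. The irradiated groups of experiment 1 overlapped each other, whereas in experiment 2 the 3 low mice lay above all medium and high mice.

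Over both experiments the E2f8 signal was 152 ± 63.4 at the low level, 89.0 ± 27.2 at the medium and 103 ± 35.0 at the high (mean ± SD, n = 6 mice each). The difference from control was -1.44 ± 0.45 at the high level (log2, SE; adjusted p = 0.393 in limma; 95% interval -2.39 to -0.50). At the medium level it was -1.61 ± 0.45 (limma adjusted p = 0.357; interval -2.56 to -0.67), and at the low level -0.89 ± 0.45 (adjusted p = 0.998). A second E2f8 probe set, with a mean of 12.6 and so under the limit, differed by -0.10 at the high level, -0.16 at the medium and 0.39 at the low. E2f8 was the one cell cycle gene tested that was at least 1.5-fold under the pool in all 6 high mice, as 0.17% of all genes were, and in all 6 medium mice, as 0.116% were. Within experiment 1 the high mice differed from the pool by -0.75 and within experiment 2 by -2.14, and the difference between these, -1.40 ± 0.81, had a limma adjusted p of 0.998. With arrays weighted by the number of mice, the adjusted p was 0.0119 at the high level, where 374 genes passed in all, and 0.00592 at the medium level, where 267 did. Over all alternatives it ran from 0.0119 to 0.808 and from 0.00592 to 0.908.

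Stmn1 encodes stathmin, which destabilizes microtubules and is abundant in dividing cells. Its signal in experiment 1 was 1025 in the pool, 869.6, 679 and 786 in the low mice, 718, 589 and 575 in the medium mice, and 726, 590.2 and 647 in the high mice. In experiment 2 it was 730.0 in the pool, 671, 752 and 644 at the low level, 629, 666 and 607 at the medium level, and 356, 621 and 578 at the high level. Of the 18 mice, 17 lay under their pool, and 1 low mouse of experiment 2 lay above it. The levels overlapped each other in experiment 1. In experiment 2 each high mouse lay under each low mouse.

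The Stmn1 difference from control was -0.59 ± 0.18 at the high level (log2, SE; limma adjusted p = 0.380; 95% interval -0.95 to -0.22). It was -0.46 ± 0.18 at the medium level (limma adjusted p = 0.699) and -0.24 ± 0.18 at the low level (adjusted p = 0.998). Between the high and low levels the Stmn1 difference was -0.34 ± 0.12 (limma adjusted p = 0.306; interval -0.60 to -0.09), with 6 of 6 high mice under the low mean of their experiment. The pools do not enter this difference, but they enter the estimate of spread behind its error. A second Stmn1 probe set, with a mean of 65.9 and so under the limit, differed by -0.24 at the high level, -0.85 at the medium and 0.59 at the low. With arrays weighted by the number of mice, the adjusted p of the first probe set at the high level was 0.0150, and over all alternatives it ran from 0.0150 to 0.9998.

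Cdk2, the kinase partner of cyclins E and A, had the next smallest p at the high level. In experiment 1 its pool was at 527, the low mice at 465, 568 and 366, the medium mice at 464, 464 and 414, and the high mice at 543, 316 and 479. In experiment 2 its pool was at 645, the low mice at 491, 588 and 411, the medium mice at 409, 439.8 and 426, and the high mice at 481, 471 and 578. The medium mice lay under their pool in 6 of 6 cases, and at the low and high levels 5 of 6 did. The difference was -0.41 ± 0.19 at the medium level (log2, SE; limma adjusted p = 0.791), -0.31 ± 0.19 at the high level (adjusted p = 0.764) and -0.29 ± 0.19 at the low level (adjusted p = 0.998). A second Cdk2 probe set, with a mean of 11.3 and so under the limit, differed by 0.20 at the medium level, 0.28 at the high and 1.51 at the low.

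The other G1 genes tested, Cdk4 and Ccnd1, had fitted differences from control near 0. Cdk4, the cyclin D kinase, ran from 640.3 to 974 over the 20 arrays. Its pools were at 728 and 862, its high mice at 740.5, 842 and 907 in experiment 1 and at 805, 815 and 974 in experiment 2. Its groups overlapped in both experiments, and the high difference from control was 0.09 ± 0.13 (log2, SE; 95% interval -0.18 to 0.36; limma adjusted p = 0.905). Cdk4 also had the smallest spread of the 21 genes within groups, with an SD of 0.15 on the log2 scale. Its low mice were at 669, 838 and 754 in experiment 1 and at 774, 927 and 795 in experiment 2. Its medium mice were at 640.3, 827 and 793, and at 917, 817 and 793. Ccnd1, which encodes cyclin D1, differed by 0.02 ± 0.20 at the high level (interval -0.40 to 0.45). Its medium mice lay under the pool of experiment 1 (684, 561 and 695 against 770). In experiment 2 its medium mice (861, 939 and 890) and high mice (942, 848 and 814) lay above the pool at 716. Its other groups lay on both sides of their pool. Its other probe sets, with means of 536 and 335, differed by 0.21 and 0.07 at the high level and by 0.05 and -0.30 at the medium.

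**Figure D3:**
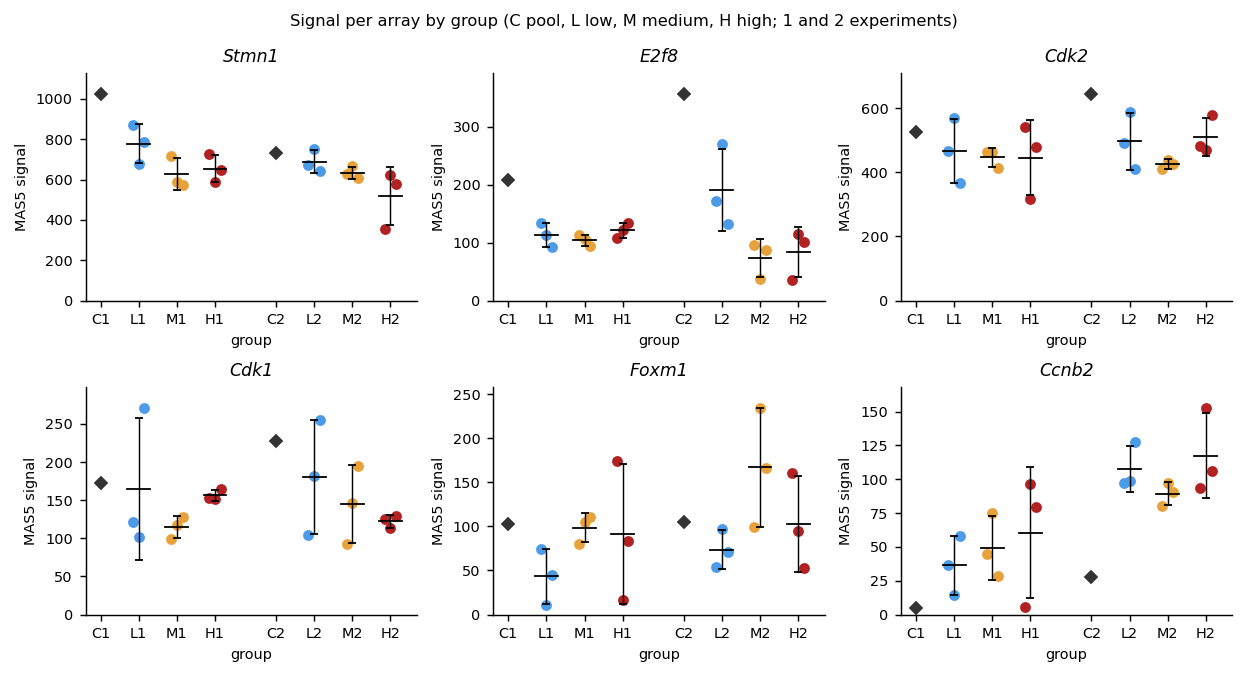
MAS5 signal of Stmn1, E2f8, Cdk2, Cdk1, Foxm1 and Ccnb2 on linear axes from 0, by group, with diamonds for the control pools (C), points for single low (L), medium (M) and high (H) mice of experiments 1 and 2, and bars for mean and SD of 3 mice. For E2f8 all 18 irradiated mice lie under the pool of their experiment, and for Ccnb2 all 18 lie above it. Ccnb2 is under the limit and was picked after its values were seen.

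Foxm1, the forkhead factor that drives G2 and mitotic genes, had the widest spread among the 21 genes. Its signal in experiment 1 was 103 in the pool, 74.0, 10.9 and 44.6 at the low level, 80.1, 105 and 111 at the medium level, and 174, 16.4 and 83.0 at the high level. In experiment 2 it was 105 in the pool, 53.6, 96.8 and 70.6 at the low level, 99.6, 234 and 166 at the medium level, and 160.4, 94.5 and 52.8 at the high level. In both experiments the 3 medium mice lay above the 3 low mice, and the high mice overlapped both. Foxm1 was the one cell cycle gene tested whose medium and low mice did not overlap in either experiment, as 0.535% of all genes tested did in that direction. The medium to low difference was 1.19 ± 0.44 (log2, SE; limma adjusted p = 0.498; 95% interval 0.28 to 2.09). Of its 3 other probe sets, all under the limit, those with means of 56.4, 26.0 and 16.6 differed by -0.29, -0.37 and 0.31 for medium against low. Low against control was -0.95 ± 0.62 (adjusted p = 0.998), with 6 of 6 mice under their pool, and high against medium was -0.62 ± 0.44 (adjusted p = 0.999). Many of these signals lie near or under the array medians, and Foxm1 had an SD within groups of 0.87, against a median of 0.24 for all genes tested. E2f1, the activating E2F, differed by -0.16 at the high level, -0.33 at the medium and -0.50 at the low, with limma adjusted p-values of 0.960, 0.943 and 0.998.

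Of the 6 MCM genes, 0 passed at any level. Their median difference from control was -0.26 at the high level, -0.15 at the medium and -0.23 at the low. These medians are of the probe sets chosen: for Mcm2, Mcm3, Mcm4, Mcm5 and Mcm7, probe sets above the limit differed in sign at the high level. A second Mcm2 probe set, for example, was at 0.32, 0.44 and 0.16 at the high, medium and low level. The Mcm3 probe set chosen was at -0.23, -0.35 and -0.26 in that order. Another Mcm3 probe set, with a mean of 118, was at 0.96, 1.09 and 1.00, and a further one, with a mean of 98.1, at -0.37, -0.40 and -0.48. Mcm7, shown as the gene with the brightest probe set of the group, had pools at 1262 and 1329. In experiment 1 the Mcm7 signal was 1038, 940.0 and 862 at the low level, 1037, 1037 and 1080 at the medium and 1239, 952 and 1034 at the high. In experiment 2 it was 1416, 1400 and 1226 at the low level, 1219, 1472 and 1437 at the medium and 1069, 1472 and 1321 at the high. All 9 irradiated mice of experiment 1 lay under their pool, and those of experiment 2 lay on both sides of theirs. How many of all genes did so was not counted. The high difference from control was -0.15 ± 0.14 (log2, SE; 95% interval -0.43 to 0.13; limma adjusted p = 0.843).

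Mcm6 had the MCM difference farthest below 0 at the high level, -0.38 ± 0.32 (log2, SE; limma adjusted p = 0.824). In experiment 1 its pool was at 218, the low mice at 421, 243 and 271, the medium mice at 282, 152 and 239, and the high mice at 224, 266 and 140.1. In experiment 2 its pool was at 536, the low mice at 285, 342 and 478, the medium mice at 416, 615 and 356, and the high mice at 345, 451 and 245. The pools stood at different places, near the bottom of the range in experiment 1 and near its top in experiment 2, and the levels overlapped in both. High against low, Mcm6 differed by -0.33 ± 0.22 (limma adjusted p = 0.658), with 5 of 6 high mice under the low mean. Mcm2 had an SD of 0.71 within groups and ran from 99.7 to 648 within the low group of experiment 1 alone.

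The genes of deoxynucleotide supply also stayed under the threshold in all 3 comparisons with control. Tk1, thymidine kinase, was at 577 in the pool of experiment 1, with low mice at 452, 651 and 645, medium mice at 569.8, 553 and 668, and high mice at 481, 504 and 619. In experiment 2 the pool was at 551, the low mice at 613, 477 and 493, the medium mice at 560.2, 466 and 412, and the high mice at 671, 431 and 429. Groups overlapped throughout, and the high difference was -0.13 ± 0.18 (log2, SE; limma adjusted p = 0.903). Rrm1, the large subunit of ribonucleotide reductase, was at 392 in the pool of experiment 1 and at 252 in that of experiment 2. Its low, medium and high mice were at 367, 309.8 and 355, at 427, 432 and 380.2, and at 373, 330.1 and 251 in experiment 1. In experiment 2 they were at 221, 223 and 309, at 278, 290.0 and 418, and at 386, 246 and 266. The 3 medium mice lay above the 3 low mice in experiment 1 and overlapped them in experiment 2. Medium against low was 0.32 ± 0.15 (limma adjusted p = 0.610) and high against medium -0.26 ± 0.15 (adjusted p = 0.999). A second Rrm1 probe set above the limit, with a mean of 243, was at -0.02 and 0.23 in these comparisons. Another, with a mean of 22.2 and so under the limit, was at -0.66 and 1.04.

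Among the genes of G2 and mitosis that were tested, Cdk1, the mitotic kinase, was at 172 in the pool of experiment 1. Its low mice were at 122, 101 and 271, its medium mice at 98.5, 118 and 127, and its high mice at 152, 152 and 165. In experiment 2 the pool was at 227, the low mice at 104, 182 and 255, the medium mice at 92.7, 146 and 195, and the high mice at 125, 113 and 129.6. The medium and high mice lay under their pool in 12 of 12 cases, and 1 low mouse in each experiment lay above it. The difference was -0.63 ± 0.35 at the medium level (log2, SE; limma adjusted p = 0.858), -0.49 ± 0.35 at the high level (adjusted p = 0.795) and -0.30 ± 0.35 at the low level (adjusted p = 0.998).

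Cdc20, which activates the anaphase promoting complex, was at 144 and 104 in the pools of experiments 1 and 2. In experiment 1 the low mice were at 119, 136 and 187, the medium mice at 97.3, 91.2 and 71.2, and the high mice at 112, 180.1 and 176. In experiment 2 they were at 88.7, 44.7 and 133, at 124, 65.9 and 204, and at 122, 108 and 176. The medium mice of experiment 1 lay under all other mice of that experiment, and in experiment 2 the levels overlapped. High against medium was 0.46 ± 0.30 (log2, SE; limma adjusted p = 0.999). Ccna2, which encodes cyclin A2, ran from 39.6 to 171 and differed by 0.23 at the high level (limma adjusted p = 0.941).

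The classical proliferation markers had wide errors. Mki67, which encodes the Ki-67 antigen, was at 68.2 and 90.1 in the pools and ran from 16.3 to 179 in the mice. Its high difference from control was 0.22 ± 0.55 (log2, SE; 95% interval -0.93 to 1.37; limma adjusted p = 0.950). Top2a, the topoisomerase of dividing cells, was at 74.3 and 136 in the pools and differed by -0.20 ± 0.45 at the high level (interval -1.13 to 0.74; adjusted p = 0.946). Another Top2a probe set, with a mean of 70.9 and so under the limit, differed by 0.62 at the high level. One with a mean of 8.31 differed by -0.12. The SD within groups had a median of 0.39 over the 21 genes and of 0.24 over all genes tested, on the log2 scale. It ran from 0.15 for Cdk4 and 0.16 for Mcm7 to 0.78 for Mki67 and 0.87 for Foxm1.

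The count of genes whose mice did not overlap their pool in either experiment can be read against all genes tested. At the high level these were Stmn1, E2f8 and Cdk1, 3 of 21, all lower, where 7.89% of all genes were lower in this way. At the medium level they were Stmn1, Cdk2, E2f8 and Cdk1, 4 of 21, against 7.32%. At the low level they were E2f8 and Foxm1, 2 of 21, against 4.71%. In the other direction there were 0 of 21 at each level, where 8.55%, 9% and 5.21% of all genes were higher at the high, medium and low level. Separations within a single experiment were not counted over all genes, so those given for single genes are a description.

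The 18 genes under the limit had signals from 1.56 to 210.2, mostly under the array medians. In a fit without the limit (18193 genes, 39 cell cycle genes), 0 of the 39 passed in any of the 6 comparisons between levels in limma, where 0.044% of all genes passed for high against control, 0.022% for medium against control and 0% in the other 4. At an unadjusted p under 0.05 there were 6 at the high level against control (1 higher and 5 lower), 4 at the medium and 1 at the low, where 6.26%, 5.56% and 4.09% of all genes had such a p. Of the 39, 27, 28 and 31 lay below 0 at the high, medium and low level, with medians of -0.20, -0.22 and -0.24. The medians of all genes in this fit were 0.02, 0.02 and 0.01, and their share below 0 was not counted. These counts include the 18 genes of low signal and share the same pools.

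Bub1b, the BubR1 kinase of the spindle checkpoint, is shown for the mitotic kinases, as the gene with their brightest probe set. In experiment 1 the Bub1b pool was at 92.6, the low mice at 76.5, 20.0 and 89.0, the medium mice at 47.5, 29.6 and 16.4, and the high mice at 7.14, 71.8 and 17.2. In experiment 2 the pool was at 68.8, and the mice were at 108, 44.9 and 79.0 at the low level, 70.5, 40.3 and 103 at the medium, and 109, 51.3 and 85.4 at the high. All 9 mice of experiment 1 lay under the pool, while those of experiment 2 lay on both sides of it. Kif11, the kinesin that separates spindle poles, is shown for the motors by the same rule. In experiment 1 its pool was at 112, with mice at 60.8, 66.7 and 57.6 (low), 103, 69.6 and 37.3 (medium), and 82.6, 58.9 and 5.84 (high). In experiment 2 its pool was at 39.6, with mice at 26.2, 87.5 and 69.3 (low), 78.7, 49.3 and 30.1 (medium), and 43.4, 27.7 and 18.0 (high). Again the mice lay under the pool in experiment 1 and on both sides of it in experiment 2. How many of all genes did so was not counted, for Bub1b or for Kif11.

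Ccnb2 and Ccne2 were picked from these 18 genes after their values were seen. Ccnb2, which encodes cyclin B2, was at 4.93 in the pool of experiment 1, and the mice were at 36.6, 14.1 and 58.1 (low), 44.6, 75.0 and 28.6 (medium), and 5.26, 96.8 and 79.6 (high). In experiment 2 the pool was at 27.9, and the mice were at 97.2, 98.5 and 127 (low), 80.4, 97.5 and 90.3 (medium), and 93.8, 153 and 106 (high). All 18 mice lay above the pool of their experiment, 1 high mouse of experiment 1 by little (5.26 against 4.93). Both pools lay under their array median, so no fold is given. The share of all genes under the limit with mice all on 1 side of their pool was not counted. Among the other genes under the limit, all mice of a level lay under their pool for Tyms (high), Bub1 (low) and Ccne2 (high and medium). For Cenpe all medium mice lay above their pool. Without the limit, the adjusted p in limma was 0.489 at the high level, 0.642 at the medium and 0.999 at the low. Ccne2, which encodes cyclin E2, was at 110.1 and 122 in the pools and at 34.1, 47.0 and 71.2, and 49.7, 44.5 and 58.5, in the high mice of experiments 1 and 2. Each of these 6 mice lay under its pool. The medium mice, all under their pools too, were at 47.2, 85.4 and 73.2, and 50.9, 74.2 and 107. The low mice were at 40.8, 93.2 and 68.7, and 121, 167 and 62.2, and the mouse at 167 lay above its pool.

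Comparisons between dose levels use 6 mice a level and no pool. None of the 21 genes passed for high against low, medium against low or high against medium, nor did any of the 11206 genes (0%). At an unadjusted p under 0.05, high against low had 1 of 21, Stmn1, where 10.1% of all genes had such a p. Medium against low had 3 of 21, Foxm1 and Rrm1 above 0 and E2f8 below, against 7.95%, and high against medium had 0 of 21, against 3.78%. E2f8 differed by -0.72 ± 0.32 for medium against low (log2, SE; limma adjusted p = 0.595) and by -0.55 ± 0.32 for high against low (adjusted p = 0.593). The latter was 0.11 within experiment 1 and -1.21 within experiment 2. The median difference of the 21 genes was 0.04, 0.01 and -0.01 for high against low, medium against low and high against medium.

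Whether a difference between levels was larger in one experiment was tested as an interaction. No cell cycle gene passed in any of the 6 interactions (limma, 8 group means), where 0.00892% of all genes passed for high against control and 0% in the other 5. At an unadjusted p under 0.05 there were 0 of 21 in each of the 3 interactions with control, where 3.65%, 3.27% and 4.19% of all genes had such a p for the high, medium and low level. There was 1 of 21 for high against low (E2f8, 7.07% of all genes), 4 of 21 for medium against low (8.88%) and 1 of 21 for high against medium (Mcm5, 4.93%). The 4 were Mcm3, Mcm5, Cdc20 and E2f8. Mcm3 had the smallest p, with a difference in experiment 2 minus experiment 1 of 1.41 ± 0.43 (log2, SE; limma adjusted p = 0.306).

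The last comparison set experiment 2 against experiment 1 over all dose levels. Mcm6 and Mcm7 rose and Rrm1 fell, so 3 of the 21 genes passed, where 42.7% of all genes tested did. Mcm7 was 0.35 ± 0.07 higher in experiment 2 (log2, SE; limma adjusted p = 0.000629), and its signal over the 9 irradiated mice was 1024 ± 105 in experiment 1 and 1337 ± 139 in experiment 2 (mean ± SD). Mcm6 was 0.72 ± 0.17 higher (limma adjusted p = 0.00200), with 249 ± 81.8 and 392 ± 112. Rrm1 fell by 0.33 ± 0.11 (limma adjusted p = 0.0231), from 358 ± 56.5 to 293 ± 68.7. Without either pool the adjusted p of Rrm1 was 0.0552 (experiment 1) or 0.0543 (experiment 2), and with arrays centred on their medians it was 0.0514.

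Other probe sets for these genes did not all move the same way. A second Mcm6 probe set above the limit, with a mean of 108, differed by -0.12 between the experiments. The 3 other Mcm7 probe sets differed by 0.31, -0.11 and 0.20, and a second Rrm1 probe set, with a mean of 243, differed by 0.07. Of 11 cell cycle genes with several probe sets above the limit, 2 had probe sets that all agreed in sign in this comparison. For the comparisons between dose levels, 4 to 6 of the 11 did. The ratio of 3′ to 5′ probe set signal for Gapdh, a sign of RNA and labelling quality, ranged between 0.69 and 0.769 on the arrays of experiment 1 and between 0.871 and 0.993 on those of experiment 2, and its part in these differences was not tested. Some cell type markers passed between the experiments too. In experiment 2, 5 of 7 stellate cell and fibroblast markers were higher, with the smallest p for Pdgfrb (0.67 ± 0.16, limma adjusted p = 0.00135), as were 3 of 8 hepatocyte and 2 of 6 endothelial markers. Over all genes tested, 42.7% passed in this comparison, in either direction. In the other 7 marker lists 0 passed, and the part of these cells in the differences was not tested. Duration, age at the end, dose-rate and laboratory handling cannot be told apart in this comparison.

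**Figure D4:**
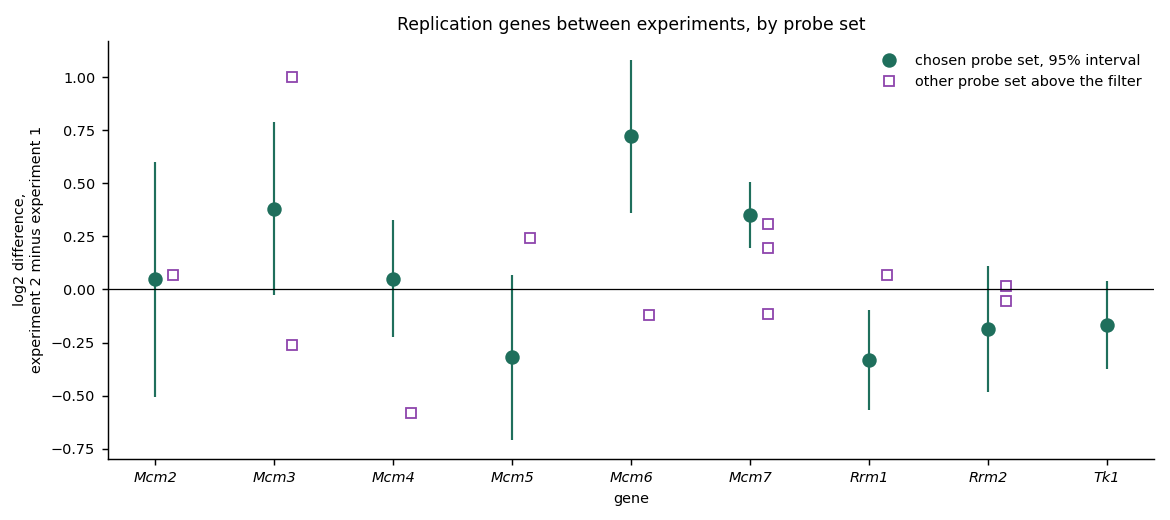
Log2 difference of experiment 2 minus experiment 1 for the 6 MCM genes, Rrm1, Rrm2 and Tk1, with filled points and 95% intervals from limma for the probe set used and open squares for other probe sets above the limit. The intervals of Mcm6, Mcm7 and Rrm1 lie on 1 side of 0, and 1 or more open squares of each of these genes lie on the other side.

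Lists of other cell cycle genes were set beside the 40. Of 39 other DNA replication genes, 37 were on the array and 33 were tested, and 0 passed between any levels in limma. At the high level against control 19 lay above 0 and 14 below, with a median of 0.07, at the medium level 22 and 11, and at the low level 15 and 18. At the high level the smallest p was that of Rpa3, a subunit of the single-strand binding protein RPA (0.32, adjusted p = 0.664). Of 47 other mitosis genes 25 were tested and 0 passed. Of these 13 lay above 0 and 12 below at each level, with a median of 0.02 at the high level, where the smallest p was that of Cks2, a CDK-binding protein (0.57, adjusted p = 0.380).

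Of 18 cell cycle inhibitors and pocket proteins 16 were tested and 0 passed. At the high level 11 lay above 0 and 5 below, with a median of 0.10. At the medium level 8 lay on each side, and at the low level 6 lay above 0 and 10 below, with a median of -0.12. The smallest p at the high level was that of Btg1, an antiproliferative gene (0.40, limma adjusted p = 0.242). Of 10 other G1 regulators 8 were tested and 0 passed, with a median of 0.03 at the high level, where Myc had the smallest p (-1.09, adjusted p = 0.768). Between the experiments, 3 replication genes were higher and 8 lower in experiment 2, out of 33. The same counts were 3 and 2 of 25 for mitosis, 3 and 2 of 16 for inhibitors, and 3 and 1 of 8 for G1 regulators, where 42.7% of all genes passed.

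Markers of 10 cell types or states were read on the same arrays, and 0 of them passed between dose levels in limma. All 8 hepatocyte markers passed the limit on mean signal and were tested. Their summed signal was 310315 and 366815 in the pools and 298969 to 413394 in the mice. Against control, 7, 6 and 3 of 8 lay above 0 at the high, medium and low level. Their medians were 0.06, 0.13 and -0.02 in the same order. At the high level the smallest p was that of Hnf4a, which lay below 0 (-0.36, limma adjusted p = 0.522). B cell markers were above 0 against control for 4 of 4 genes tested at each level, with medians of 0.58, 0.65 and 0.82 at the high, medium and low level, and 0 passed. Of 7 stellate cell and fibroblast markers 6 lay above 0 at each level, with medians of 0.26, 0.18 and 0.09. Endothelial markers lay above 0 in 4 of 6 cases at each level. Kupffer cell and macrophage markers did so in 6, 3 and 7 of 9 cases at the high, medium and low level, and neutrophil markers in 2, 3 and 4 of 4. Both bile duct markers tested and Cd24a, of the fetal liver and tumour list, lay above 0 at each level, and Cd8a, the T cell marker tested, below it. Erythroid markers lay above 0 in 0, 2 and 2 of 3 cases. The summed signal of 6 B cell markers was 2212 and 4166 in the pools and 3035 to 13483 in the mice. That of 6 erythroid precursor markers was 5407 and 3998 in the pools and 2471 to 5059 in the mice. For neutrophils and their precursors (7 markers) it was 917 and 759 in the pools and 529 to 3692 in the mice. Bone marrow and lymphoid cells also divide, and the part of these cells in the values of the cell cycle genes was not tested. Single mice differed in how often they were the highest or lowest of the 10 arrays of their experiment for the 21 genes. In experiment 1, low mouse 3 was the highest for 8 genes and low mouse 2 the lowest for 5. In experiment 2, medium mouse 2 was the highest for 6, medium mouse 3 the highest for 5 and low mouse 1 the lowest for 6. Such counts were not made over all genes tested, so whether they are particular to the cell cycle genes was not tested.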

How the data were processed

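Liver RNA was hybridised to 20 Affymetrix arrays, and the authors deposited linear signal intensity per probe set, computed by MAS5 according to the submitters' processing notes (version: not given in the sources used here). Probe sets were named from the platform annotation, which gave 1 gene symbol for 34945 of 45101 probe sets, several for 932 and none for 9160, beside 64 controls. Signals were used as log2(signal + 7.12), 7.12 being the 10th percentile of all signals. Differences are on that scale, which understates those of genes with low signal. One probe set per gene was fitted with limma 3.58.1 in R 4.3.3 (lmFit, eBayes with a variance trend, two-sided, Benjamini-Hochberg at 0.05) to the 20 arrays together, on dose level plus experiment, leaving 15 residual degrees of freedom. Interactions used 8 group means and 12 residual degrees of freedom. The code was tested on simulated data. Groups came from the labels. The highest correlation between arrays was 0.943.

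Every array's signal is given for the 3 genes with the smallest p in each of the 6 comparisons of levels, for any gene past the threshold, and for the gene of highest signal in each role group. Mki67, Top2a, Ccnd1, Ccna2, E2f1, Mcm2, Mcm3, Mcm5, Ccnb2 and Ccne2 were added after values were seen. The genes and lists were chosen with earlier results of these data known. Promoter sequences are from RefSeq, and 8 genes had no entry in the table used: Aurkb, Ccna2, Ccnd1, Ccne2, Foxm1, Kif20a, Mcm4 and Stmn1. Alternatives were the pseudocount, the limit on low signals, centring, quantile normalization, the probe set rule, the variance trend, the arrays in the fit, weights by number of mice, a replicate block and leaving out each array.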

Additional observations from a re-analysis of the deposited data

How the results depend on the processing

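Over 33 alternative settings, 395 of 398 counts of cell cycle genes past the threshold stayed within 1.5 times the value given. The other 3 arose when arrays were weighted by the number of mice. Then 2 genes passed for high against control (E2f8 at -1.55 and Stmn1 at -0.55), 1 for medium against control (E2f8 at -1.72) and 5 for experiment 2 against experiment 1 (Cdk4, Mcm6, Mcm7, Rrm1 and Stmn1). The weighting gives the pools of 3 and 6 mice a smaller variance, and it called 374 and 267 genes in all for the first pair of comparisons. Leaving out 1 array at a time gave 0 genes in each comparison between levels and 2 to 4 between experiments. E2f8 for high against control ran from -1.91 to -0.98 when single arrays were left out. In the same way E2f8 ran from -1.36 to -0.43 for low against control and from -0.69 to -0.29 for high against low. Mcm6 ran from -0.45 to -0.18 for high against low, and Foxm1 from -0.91 to -0.29 for high against medium. None of the 21 named differences changed sign when 1 array was left out. For high against low E2f8 turned to 0.11 in experiment 1 alone (limma adjusted p = 0.956), and the cause was not tested. With a replicate block for the mouse number, 0 genes passed for high against low, medium against low or high against medium (lowest limma adjusted p 0.232, 0.375 and 0.999), while 7 of 18 same-number pairs, among them all 3 pairs of number 1 in experiment 1, had a correlation over 0.1. That is not every pair, so the numbers were not used to pair mice.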
